A study of Mus musculus with 9 samples.

Results

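Mitosis genes are the cell's machinery for dividing its chromosomes, and 54 of them were followed here through primary mouse myoblasts given BMP4, GREM1 or a mock treatment. The members were chosen by gene symbol from a written list of spindle, kinetochore, kinesin, cyclin and related genes, with 1 probe set per gene, and 53 of the 54 were measured among 24011 genes. All 53 were bright enough to be tested, beside 17142 tested genes in all. Ccnb1, one of the B-type cyclins, is not analysed here.

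Expression was measured on Affymetrix arrays, 9 in all and 3 per group, of myoblasts grown out of satellite cells, the stem cells of skeletal muscle. BMP4 cells received recombinant BMP4 protein at 100 ng/ml, GREM1 cells received recombinant GREM1 protein at 500 ng/ml, and control cells were mock-treated. All cells had first been kept proliferating in 20% fetal bovine serum with basic FGF and were then moved to 2% horse serum, and RNA was taken after 24 h. The labels name neither the strain, sex or age of the mice nor separate animals or cultures for the replicates, so the p-values measure only the spread between these samples. BMP4 is a secreted ligand of BMP receptors, and GREM1 is a secreted antagonist that traps such ligands outside the cell. Moving myoblasts from rich to poor serum is the usual way to make them leave the cell cycle and differentiate.

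Values are log2 expression levels, so a difference of 1 is a doubling. The level of one gene is not set against that of another, because probe sets differ in brightness. Array medians lay between 5.00 and 5.12. The first principal component (42.2% of the variance) held the GREM1 arrays between 16.0 and 27.5 and every BMP4 and control array below 0, and the second (20.9%) held control replicate 1 at 31.6, apart from the other arrays, of which the next was BMP4 replicate 1 at 6.12. All 10 myoblast and satellite cell markers on the list, among them Pax7, Myf5, Myod1 and Des, passed the filter on low values. That filter passed 17142 of all 24011 genes. Of the markers of other cell types, 4 of 8 for fibroblasts, 4 of 8 for endothelium, 3 of 7 for leukocytes, 6 of 7 for pericytes and smooth muscle, and 2 of 3 for Schwann cells passed it.

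Entry into mitosis is driven by CDK1 bound to cyclins A and B, which CDC25 phosphatases switch on and which PLK1 and the Aurora kinases work beside. Microtubules then capture chromosomes at their kinetochores, the spindle checkpoint holds back the anaphase-promoting complex until all are attached, and kinesin motors, the chromosomal passenger complex and the contractile ring carry out separation and cell division. Transcripts of these genes accumulate in late S, G2 and M phases and are low in resting cells. Many of their promoters carry a CHR element (core TTTGAA), the site of the MuvB protein complex, which represses them in resting cells with E2F4 and the pocket proteins and activates them in dividing cells with B-MYB and FOXM1. They also often carry CCAAT boxes, the site of NF-Y.

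The 2 promoters below are shown whole because Kif20b kept its fall with GREM1 under every alternative analysis tried and Cdk1 is the kinase at the centre of mitotic entry. They run from 250 bases before the RefSeq gene start to 50 from it, in the GRCm38.p6 build, with CHR cores (TTTGAA, or TTCAAA when read on the other strand) and CCAAT boxes (CCAAT or ATTGG) in capitals. The Kif20b window is chr19:34922108-34922407 on the plus strand, and the Cdk1 window is chr10:69352863-69353162 on the minus strand.
Kif20b: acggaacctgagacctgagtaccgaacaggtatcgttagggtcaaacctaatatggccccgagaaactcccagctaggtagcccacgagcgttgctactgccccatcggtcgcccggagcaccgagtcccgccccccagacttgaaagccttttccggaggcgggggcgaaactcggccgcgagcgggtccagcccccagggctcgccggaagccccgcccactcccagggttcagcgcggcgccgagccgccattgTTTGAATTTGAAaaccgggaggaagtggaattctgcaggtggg
Cdk1: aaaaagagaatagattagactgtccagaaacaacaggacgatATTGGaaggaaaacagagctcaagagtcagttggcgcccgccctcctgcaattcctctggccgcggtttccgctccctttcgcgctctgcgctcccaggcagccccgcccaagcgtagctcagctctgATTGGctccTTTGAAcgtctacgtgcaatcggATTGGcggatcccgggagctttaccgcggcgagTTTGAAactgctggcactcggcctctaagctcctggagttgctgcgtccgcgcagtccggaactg

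Kif20b held 2 CHR cores in tandem, at bases 8 and 14 from the start, and no CCAAT box in the window. Cdk1 held 2 CHR cores, at -71 and -15, and 3 CCAAT boxes, at -208, -80 and -48, counted upstream of the start. Shorter windows, from base -70 to base 40, show the arrangement around the start for members that are described below, with Nusap1 as a member whose window holds neither motif. They lie at chr7:122159365-122159474 on the plus strand (Plk1), chr9:83834619-83834728 on the plus strand (Ttk), chr9:61946760-61946869 on the minus strand (Kif23), chr11:40733398-40733507 on the minus strand (Hmmr), chr11:99024150-99024259 on the minus strand (Top2a) and chr2:119618228-119618337 on the plus strand (Nusap1), in the same build and with the same capitals.
Plk1: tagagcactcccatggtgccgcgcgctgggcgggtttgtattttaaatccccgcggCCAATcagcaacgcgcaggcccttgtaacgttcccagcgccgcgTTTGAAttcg
Ttk: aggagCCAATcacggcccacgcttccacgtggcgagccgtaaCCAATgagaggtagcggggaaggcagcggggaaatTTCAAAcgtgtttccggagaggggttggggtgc
Kif23: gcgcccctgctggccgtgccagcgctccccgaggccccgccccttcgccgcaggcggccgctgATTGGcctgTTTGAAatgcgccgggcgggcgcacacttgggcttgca
Hmmr: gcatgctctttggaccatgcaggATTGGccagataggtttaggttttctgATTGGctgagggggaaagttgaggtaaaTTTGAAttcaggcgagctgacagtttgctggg
Top2a: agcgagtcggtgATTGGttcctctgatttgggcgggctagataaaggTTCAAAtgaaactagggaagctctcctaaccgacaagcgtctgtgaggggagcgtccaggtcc
Nusap1: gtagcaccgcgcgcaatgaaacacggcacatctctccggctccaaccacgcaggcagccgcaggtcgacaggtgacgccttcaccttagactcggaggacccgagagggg

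RefSeq promoters matched 45 of the 54 members, with 49 promoters because 4 genes had 2 each. Ccna2, Cdc25c, Foxm1, Spc24, Aurkb, Incenp, Kif20a, Tpx2 and Smc4 had no match. The CHR core TTTGAA, searched on both strands, lay in 35 of the 49 promoters (71.4%), against 17.9% of all 32851 promoters of the same length. CCAAT, likewise on both strands, lay in 37 (75.5%), against 37.4% of all, and both motifs together lay in 61.2%, against 6.95% of all. An E2F-like site (TTTGGCGC, TTTCCCGC or TTTCGCGC, on either strand) lay in 3 (6.12%), against 1.84% of all. A CHR core and a CCAAT box can share an end letter, and each was counted where it occurred. The 1 E2F-like match of Cdk1 is left in lower case in the sequence above.

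**Figure D1:**
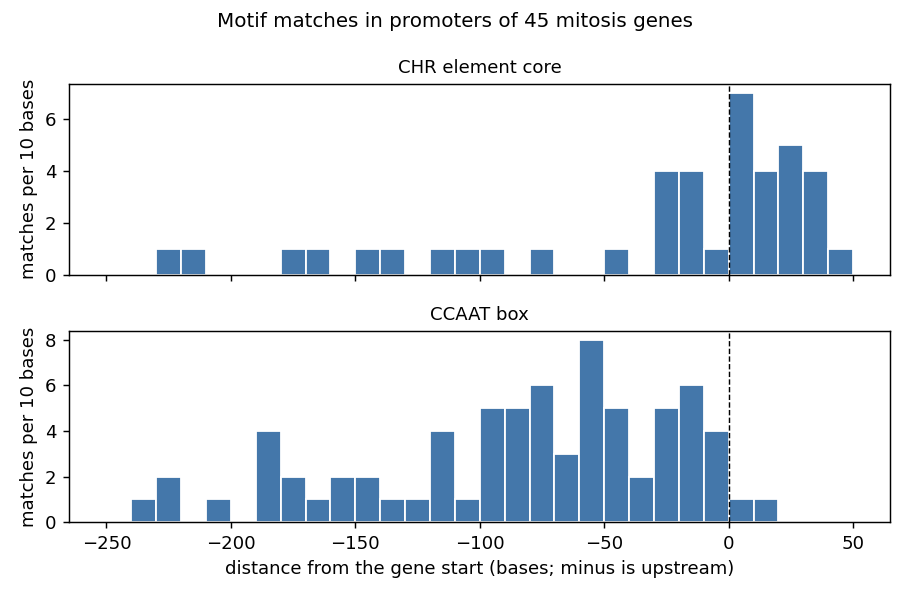
Distance of each CHR core (top) and CCAAT box (bottom) from the gene start in the promoters of 45 mitosis genes, 1 promoter per gene, as matches per 10 bases (vertical axes); the dashed line is the gene start. Of 41 CHR cores, 10 lay in the 50 bases before the start and 21 in the 50 bases from it, while of 73 CCAAT boxes 27 lay between 100 and 51 bases before the start, 22 in the last 50 bases before it and 2 after it.

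The histogram of motif distances places the CHR cores around the gene start and the CCAAT boxes mostly upstream of it, as in the Plk1, Ttk, Kif23, Hmmr and Top2a windows. Members with a CHR core did not have a median difference further from 0 between GREM1 and control arrays, given as a description with no test. The 32 measured members with one had a median GREM1 minus control difference of -0.61, and the 12 matched members without one had -0.72. Nusap1, without either motif, differed by -0.75. A match is a run of letters and not a measured binding site.

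GREM1 arrays had lower levels of mitosis genes than control arrays, and no member passed the test between BMP4 and control arrays. In GREM1 minus control, 17 of 53 members fell and 0 rose, where 2.21% of all tested genes fell and 2.07% rose. All 53 differences were below 0, with a median of -0.67, while the median over all tested genes was -0.0057. In 40 members every GREM1 array lay below every control array, which held for 12.7% of all tested genes in that direction. In bulk RNA, fewer cells in mitosis and less mitotic RNA per cell cannot be told apart.

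**Figure D2:**
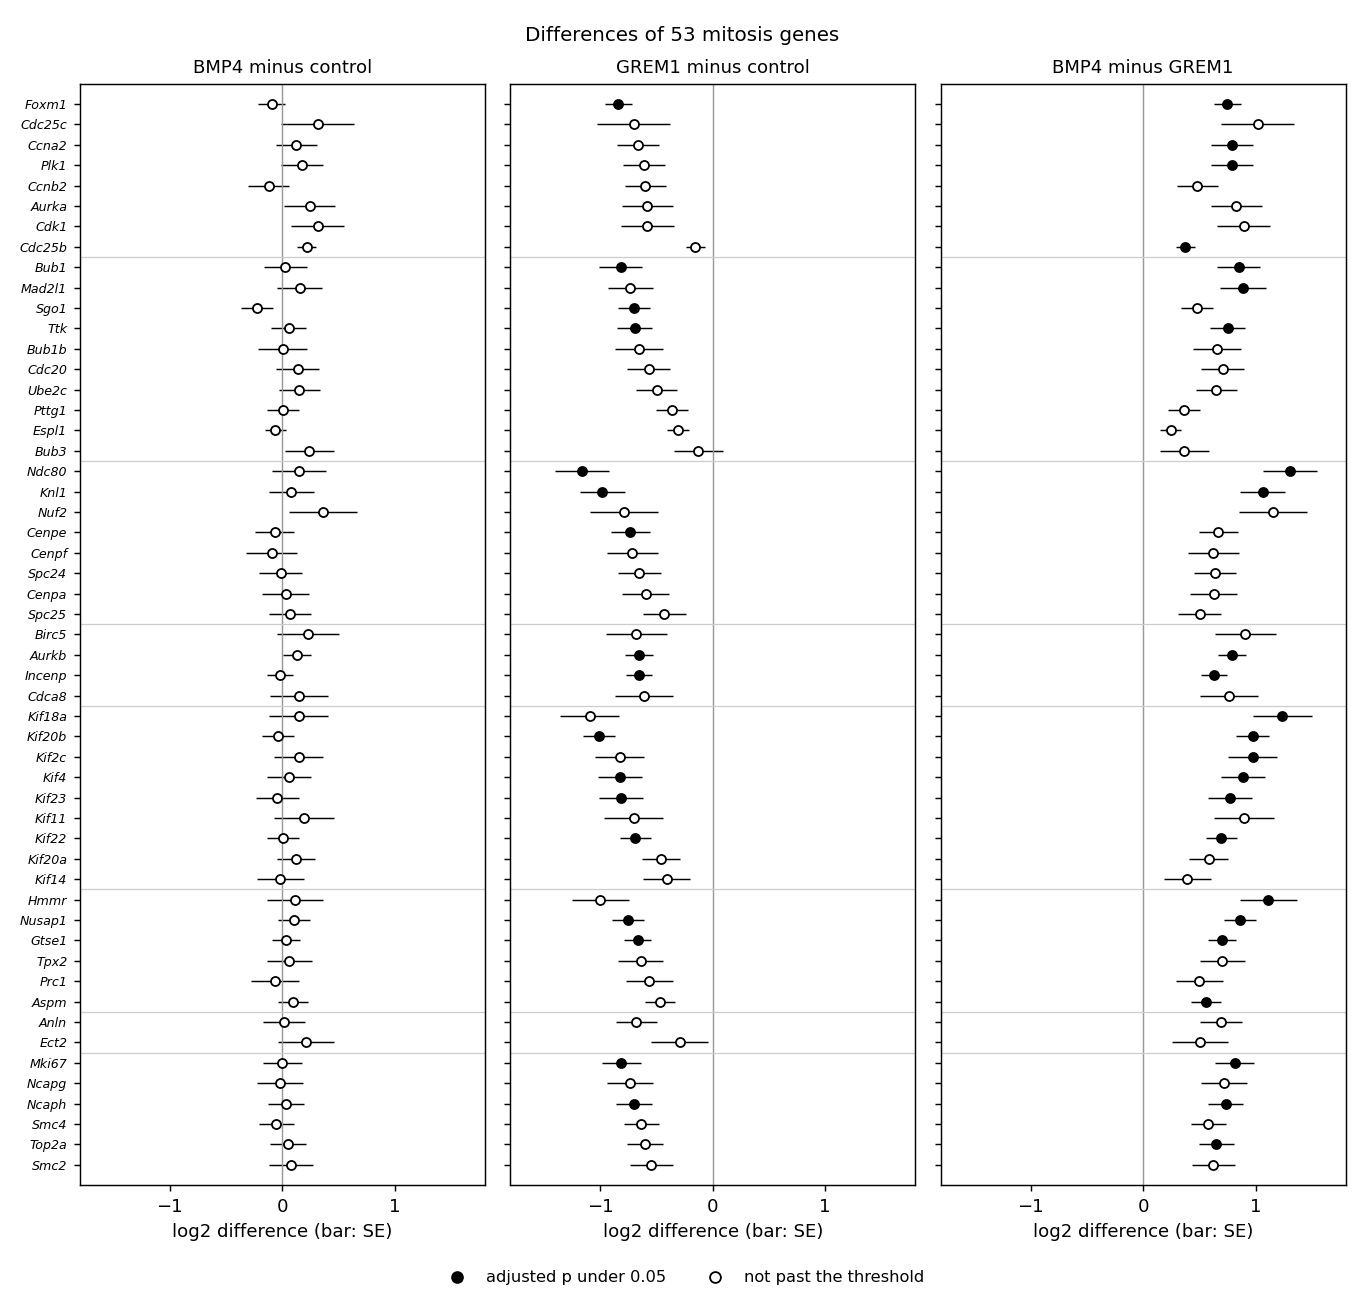
Log2 difference of each of 53 mitosis genes (rows, by function, grey lines part the groups) for BMP4 minus control, GREM1 minus control and BMP4 minus GREM1 (panels), with the SE from limma as bars; filled points passed the adjusted p threshold of 0.05. In the middle panel all 53 points lie below 0 and 17 are filled, in the right panel all lie above 0 and 24 are filled, and in the left panel none is filled.

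Arrays with the same replicate number deviated together, most closely those of number 3. Across all tested genes, BMP4 and control arrays of the same number deviated from their group means with correlations of 0.17 to 0.58, and GREM1 and control arrays with 0.12 to 0.47. Number 3 gave the upper end of both ranges and number 2 the lower end. Arrays of unlike numbers correlated from -0.47 to 0.23, so the pairing of number 2 is not set apart by these values. With the number as a block, 49 of 53 members fell in GREM1 minus control, where 1029 of the 17142 tested genes fell and 11.6% passed in either direction, and the members that did not were Cdc25b, Bub3, Ect2 and Kif14. The median SE of a member's difference was 0.19 without the block and 0.090 with it. Among arrays of 1 number, the median GREM1 minus control difference was -0.58 for number 1, -0.65 for number 2 and -0.73 for number 3, and 50, 53 and 53 of the 53 members were below 0.

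The mean log2 level over the 53 members was 7.71, 7.78 and 8.23 in BMP4 replicates 1 to 3, 7.09, 7.03 and 7.42 in GREM1 replicates, and 7.66, 7.72 and 8.13 in control replicates. The highest GREM1 array was thus below the lowest BMP4 and control arrays. Replicate 3 was the highest of its group for 52 of 53 members in BMP4 arrays, for 47 in GREM1 arrays and for 50 in control arrays. What replicate 3 shares across the groups is not stated in the labels and was not tested.

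**Figure D3:**
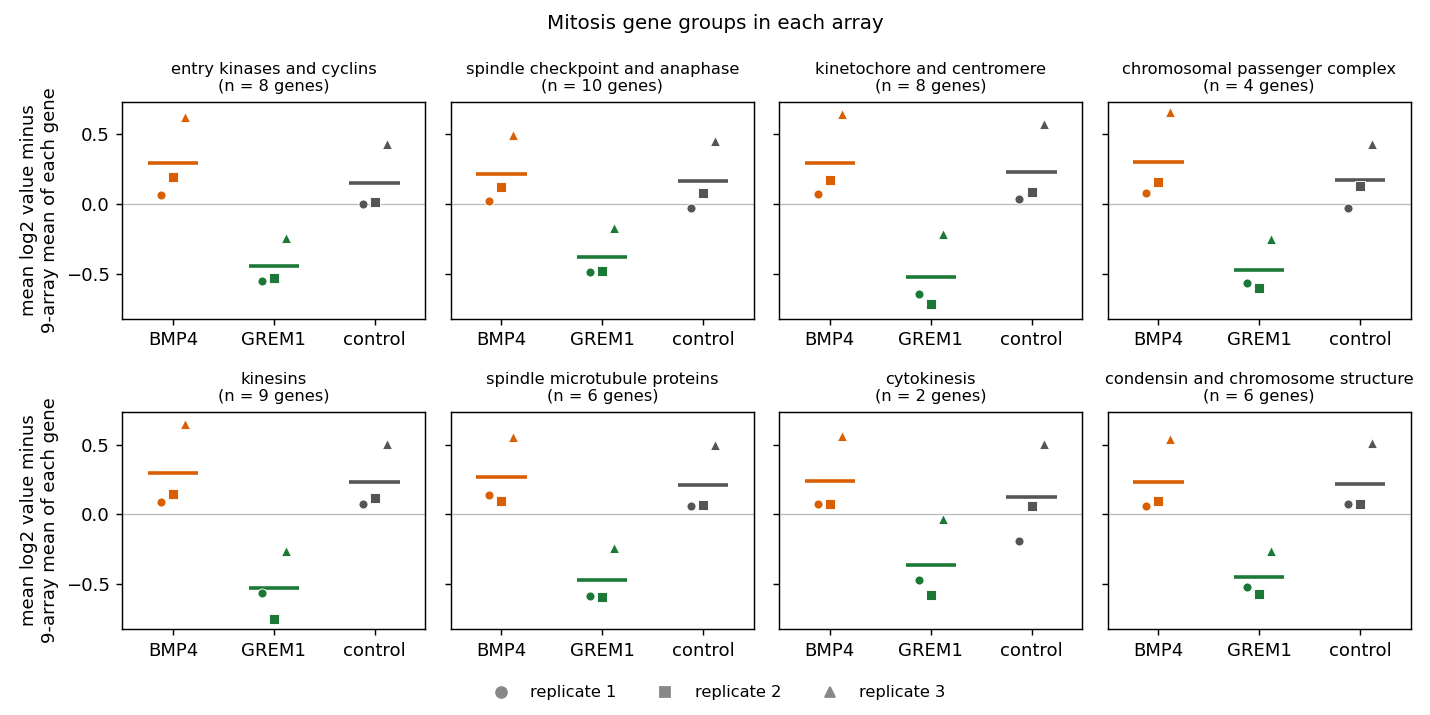
Mean log2 value of each functional group of mitosis genes in each array, after subtracting each gene's mean over the 9 arrays (vertical axes), for BMP4, GREM1 and control; symbols are replicates 1, 2 and 3 and lines are group means. In all 8 panels replicate 3 is the highest point of its group, and the mean of the GREM1 arrays is the lowest of the 3 groups.

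Among the kinases, phosphatases and cyclins of mitotic entry, 1 of 8 measured members fell in GREM1 minus control, and the median difference was -0.61. Foxm1, the forkhead factor that activates G2 and M phase genes, measured 7.89, 7.70 and 8.04 in BMP4 arrays, 7.08, 7.18 and 7.13 in GREM1 arrays and 8.11, 7.74 and 8.07 in control arrays. It fell by 0.84 ± 0.12 (SE) with GREM1, to 55.8% of the control level (adjusted p = 0.00738), and the GREM1 arrays stood clear of the others. Foxm1 and Kif20b were the 2 members whose fall with GREM1 passed the test under all 18 alternatives run. Among the alternatives, averaging the probe sets of a gene nearly repeated the main fit.

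Cdk1, the kinase that starts mitosis, measured 9.13, 9.44 and 9.97 in BMP4 arrays, 8.54, 8.48 and 8.83 in GREM1 arrays and 8.92, 9.04 and 9.64 in control arrays. Ccna2, cyclin A2, measured 8.73, 9.01 and 9.37 in BMP4 arrays, 8.02, 8.24 and 8.46 in GREM1 arrays and 8.78, 8.76 and 9.18 in control arrays. Plk1, a kinase of centrosomes and kinetochores, measured 8.32, 8.37 and 8.92 in BMP4 arrays, 7.70, 7.65 and 7.90 in GREM1 arrays and 8.09, 8.31 and 8.69 in control arrays. In all 3 genes every GREM1 array was below every control and BMP4 array, but the spread within groups was wide, and GREM1 minus control was -0.58 ± 0.24 for Cdk1 (adjusted p = 0.206), -0.67 ± 0.18 for Ccna2 (adjusted p = 0.0769) and -0.61 ± 0.19 for Plk1 (adjusted p = 0.103). With the replicate block all 3 passed, with adjusted p of 0.0133, 0.00296 and 0.00679.

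Cdc25b, a phosphatase that activates CDK1, measured 7.40, 7.31 and 7.35 in BMP4 arrays, 7.05, 6.89 and 7.0 in GREM1 arrays and 7.11, 7.26 and 7.04 in control arrays. It had the smallest GREM1 minus control difference of its group, -0.16 ± 0.085, with overlapping arrays. It was also the one member of 53 whose BMP4 arrays all lay above the control arrays, by 0.22 (adjusted p = 0.577). The same held for 911 of all 17142 tested genes. The related phosphatase gene Cdc25c differed by -0.70 in GREM1 minus control, cyclin B2 (Ccnb2) by -0.60 and the centrosomal kinase gene Aurka by -0.58, and none of these passed the test without the block.

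In the spindle checkpoint and anaphase group 3 of 10 members fell in GREM1 minus control, with a median difference of -0.61. Bub1, a checkpoint kinase at kinetochores, measured 7.70, 7.85 and 8.16 in BMP4 arrays, 6.92, 6.86 and 7.39 in GREM1 arrays and 7.70, 7.70 and 8.23 in control arrays. Ttk, the MPS1 kinase that starts the checkpoint signal, measured 7.17, 7.17 and 7.70 in BMP4 arrays, 6.53, 6.59 and 6.66 in GREM1 arrays and 7.17, 7.18 and 7.52 in control arrays. Sgo1, shugoshin, which protects cohesion at centromeres, measured 6.44, 6.65 and 6.82 in BMP4 arrays, 6.10, 6.14 and 6.25 in GREM1 arrays and 6.72, 6.71 and 7.16 in control arrays. All 3 had GREM1 arrays below all others and fell, by 0.82 ± 0.19 for Bub1 (adjusted p = 0.0467), 0.69 ± 0.15 for Ttk (adjusted p = 0.0382) and 0.70 ± 0.14 for Sgo1 (adjusted p = 0.0258).

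Mad2l1, the MAD2 protein that holds CDC20 in the checkpoint complex, measured 8.14, 8.14 and 8.44 in BMP4 arrays, 7.32, 7.03 and 7.72 in GREM1 arrays and 7.83, 7.98 and 8.45 in control arrays. Bub3, which brings BUB1 to kinetochores, measured 8.39, 8.65 and 9.04 in BMP4 arrays, 8.20, 8.20 and 8.58 in GREM1 arrays and 8.07, 8.43 and 8.86 in control arrays. Mad2l1 stood apart between GREM1 and the other arrays and differed by -0.73 ± 0.20 in GREM1 minus control (adjusted p = 0.0755), whereas the Bub3 groups overlapped and its difference, -0.13 ± 0.22 (adjusted p = 0.804), was the smallest of all 53 members. The remaining members were Bub1b (-0.66), Cdc20 (-0.57), Ube2c (-0.50), Pttg1, which encodes securin (-0.36), and Espl1, which encodes separase (-0.31), and none of these passed the test without the block.

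Of the kinetochore and centromere genes 3 of 8 fell in GREM1 minus control, with a median difference of -0.72. Ndc80, which binds microtubules at the outer kinetochore, measured 7.25, 7.31 and 7.70 in BMP4 arrays, 5.96, 5.98 and 6.40 in GREM1 arrays and 6.85, 7.14 and 7.83 in control arrays. It had the largest GREM1 minus control difference of all members, a fall by 1.16 ± 0.24 to 44.7% of the control level (adjusted p = 0.0295). Knl1, the kinetochore platform for BUB proteins, measured 7.97, 8.05 and 8.46 in BMP4 arrays, 7.12, 6.71 and 7.47 in GREM1 arrays and 8.13, 7.86 and 8.26 in control arrays. Cenpe, a kinesin motor of the kinetochore, measured 8.22, 8.14 and 8.58 in BMP4 arrays, 7.75, 7.36 and 7.82 in GREM1 arrays and 8.32, 8.15 and 8.66 in control arrays. Both fell, by 0.98 ± 0.20 for Knl1 (adjusted p = 0.0277) and by 0.74 ± 0.17 for Cenpe (adjusted p = 0.0479), and neither overlapped.

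The partners of Ndc80 in its complex had differences closer to 0, which were not tested against that of Ndc80. Nuf2 differed by -0.79 ± 0.30 in GREM1 minus control (adjusted p = 0.18) and Spc24 by -0.65 ± 0.19 (adjusted p = 0.0888). Spc25 measured 7.86, 7.99 and 8.41 in BMP4 arrays, 7.45, 7.50 and 7.81 in GREM1 arrays and 7.68, 8.07 and 8.31 in control arrays. Its GREM1 and control arrays overlapped, and the difference of -0.43 ± 0.19 was the smallest in this group (adjusted p = 0.244). Cenpf (-0.71) and Cenpa, the centromeric histone H3 variant (-0.60), lay between these values. With the block all 8 members of the group passed.

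In the chromosomal passenger complex, which corrects faulty attachments and later marks the cleavage plane, 2 of 4 members fell in GREM1 minus control. Aurkb, its kinase, measured 7.78, 7.78 and 8.18 in BMP4 arrays, 7.04, 7.12 and 7.22 in GREM1 arrays and 7.71, 7.71 and 7.93 in control arrays. Incenp, its scaffold, measured 7.69, 7.53 and 7.93 in BMP4 arrays, 7.19, 6.94 and 7.13 in GREM1 arrays and 7.67, 7.73 and 7.82 in control arrays. The GREM1 arrays of both were below all others, and both fell by 0.65 ± 0.12 (adjusted p = 0.0217 for Aurkb and 0.0168 for Incenp).

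Birc5, survivin, measured 7.70, 8.06 and 8.66 in BMP4 arrays, 6.97, 7.23 and 7.49 in GREM1 arrays and 7.50, 7.85 and 8.38 in control arrays. Cdca8, borealin, measured 7.36, 7.48 and 8.11 in BMP4 arrays, 6.78, 6.52 and 7.38 in GREM1 arrays and 7.23, 7.46 and 7.81 in control arrays. Their differences, -0.68 ± 0.27 and -0.61 ± 0.26, were close to those of Aurkb and Incenp, but the arrays of each group were further apart, and adjusted p was 0.202 and 0.226. The 4 subunits therefore spanned a narrow range of differences, from -0.68 to -0.61, with SEs that differed more than the differences did.

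Kinesins had the largest median GREM1 minus control difference of the 8 groups, -0.82, and 4 of 9 fell. Kif20b, a motor of late mitosis and cytokinesis, measured 7.48, 7.51 and 7.92 in BMP4 arrays, 6.62, 6.54 and 6.82 in GREM1 arrays and 7.80, 7.44 and 7.77 in control arrays. It fell by 1.01 ± 0.15, to 49.6% of the control level (adjusted p = 0.00748), with all GREM1 arrays far below the others. Kif4, a chromosome-bound motor, measured 7.09, 7.03 and 7.69 in BMP4 arrays, 6.39, 6.11 and 6.66 in GREM1 arrays and 7.07, 7.14 and 7.42 in control arrays. Kif22, which pushes chromosome arms outward, measured 7.04, 7.05 and 7.48 in BMP4 arrays, 6.56, 6.36 and 6.56 in GREM1 arrays and 7.05, 7.11 and 7.39 in control arrays. Kif23, the motor of the midzone complex centralspindlin, measured 8.45, 8.27 and 8.95 in BMP4 arrays, 7.75, 7.59 and 8.02 in GREM1 arrays and 8.50, 8.42 and 8.89 in control arrays. These 3 fell too, without overlap, by 0.82 (adjusted p = 0.050, just under the threshold) for Kif4, 0.69 (adjusted p = 0.0275) for Kif22 and 0.82 (adjusted p = 0.0483) for Kif23.

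Kif18a, which shortens kinetochore microtubules, measured 5.82, 6.21 and 6.73 in BMP4 arrays, 4.84, 4.70 and 5.52 in GREM1 arrays and 6.06, 5.90 and 6.38 in control arrays. Kif2c, a microtubule-depolymerising kinesin of centromeres, measured 7.14, 7.19 and 7.66 in BMP4 arrays, 6.04, 6.27 and 6.76 in GREM1 arrays and 6.97, 7.04 and 7.54 in control arrays. Kif14, a motor of cytokinesis, measured 5.74, 5.83 and 6.23 in BMP4 arrays, 5.82, 5.18 and 5.62 in GREM1 arrays and 5.60, 6.03 and 6.22 in control arrays. Kif18a had the largest difference of the kinesins, -1.09 ± 0.26 (adjusted p = 0.0504), and Kif2c differed by -0.83 ± 0.22 (adjusted p = 0.0685), both without overlap and both just short of the threshold. Kif14 had the smallest, -0.41 ± 0.21 (adjusted p = 0.316), and its GREM1 replicate 1 lay above its control replicate 1. Kif11, the motor that builds the bipolar spindle, differed by -0.70 and Kif20a, a midzone motor, by -0.46, neither past the threshold without the block.

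Of the other spindle microtubule proteins 2 of 6 fell in GREM1 minus control, with a median difference of -0.65. Nusap1, which bundles spindle microtubules, measured 6.67, 6.74 and 7.12 in BMP4 arrays, 5.88, 5.98 and 6.08 in GREM1 arrays and 6.63, 6.60 and 6.98 in control arrays. Gtse1, a microtubule-associated protein of G2 and M phases, measured 7.99, 8.08 and 8.35 in BMP4 arrays, 7.33, 7.41 and 7.58 in GREM1 arrays and 8.0, 8.03 and 8.30 in control arrays. Both fell with no overlap, Nusap1 by 0.75 ± 0.14 (adjusted p = 0.0214) and Gtse1 by 0.67 ± 0.12 (adjusted p = 0.0196).

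Hmmr, a spindle-associated hyaluronan receptor, measured 7.93, 7.82 and 8.49 in BMP4 arrays, 6.84, 6.63 and 7.43 in GREM1 arrays and 7.77, 7.77 and 8.36 in control arrays. Aspm, a protein of spindle poles, measured 6.36, 6.11 and 6.55 in BMP4 arrays, 5.62, 5.81 and 5.91 in GREM1 arrays and 6.25, 6.08 and 6.41 in control arrays. Hmmr had the largest GREM1 minus control difference of the group, -1.0 ± 0.25 (adjusted p = 0.0573), and Aspm the smallest, -0.47 ± 0.13 (adjusted p = 0.0854), and the groups of both stood apart. Tpx2, which activates Aurora A on the spindle, differed by -0.64 and Prc1, which bundles midzone microtubules, by -0.56 (adjusted p = 0.105 and 0.173).

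Neither cytokinesis gene passed the test in GREM1 minus control. Anln, anillin of the contractile ring, measured 8.86, 8.79 and 9.33 in BMP4 arrays, 8.20, 8.17 and 8.53 in GREM1 arrays and 8.81, 8.81 and 9.32 in control arrays. Ect2, the exchange factor that activates RhoA at the cleavage plane, measured 7.80, 7.87 and 8.31 in BMP4 arrays, 7.37, 7.17 and 7.91 in GREM1 arrays and 7.32, 7.82 and 8.20 in control arrays. The Anln groups did not overlap, with a difference of -0.68 ± 0.18 (adjusted p = 0.0736), whereas those of Ect2 did, with -0.29 ± 0.25 (adjusted p = 0.576).

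Condensin and chromosome structure genes had 2 of 6 members that fell in GREM1 minus control and a median difference of -0.67. Mki67, the Ki-67 protein that coats mitotic chromosomes and marks cycling cells, measured 8.62, 8.61 and 9.12 in BMP4 arrays, 7.93, 7.82 and 8.14 in GREM1 arrays and 8.66, 8.61 and 9.08 in control arrays. Ncaph, a condensin I subunit, measured 6.87, 6.88 and 7.41 in BMP4 arrays, 6.24, 6.41 and 6.30 in GREM1 arrays and 6.87, 6.92 and 7.26 in control arrays. Both fell with GREM1 arrays below all others, Mki67 by 0.81 ± 0.17, to 57.0% of the control level (adjusted p = 0.0317), and Ncaph by 0.70 ± 0.16 (adjusted p = 0.0419).

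Top2a, the topoisomerase that untangles sister chromatids, measured 9.35, 9.43 and 9.77 in BMP4 arrays, 8.80, 8.73 and 9.07 in GREM1 arrays and 9.30, 9.35 and 9.76 in control arrays. Smc2, a condensin ATPase subunit, measured 8.77, 8.85 and 9.16 in BMP4 arrays, 8.16, 8.08 and 8.66 in GREM1 arrays and 8.63, 8.72 and 9.19 in control arrays. Top2a differed by -0.60 ± 0.16 without overlap (adjusted p = 0.0651) and Smc2 by -0.55 ± 0.19, with overlap of 1 GREM1 array and 1 control array (adjusted p = 0.147). The condensin genes Smc4 (-0.63, adjusted p = 0.0538) and Ncapg (-0.74, adjusted p = 0.0757) were also short of the threshold.

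**Figure D4:**
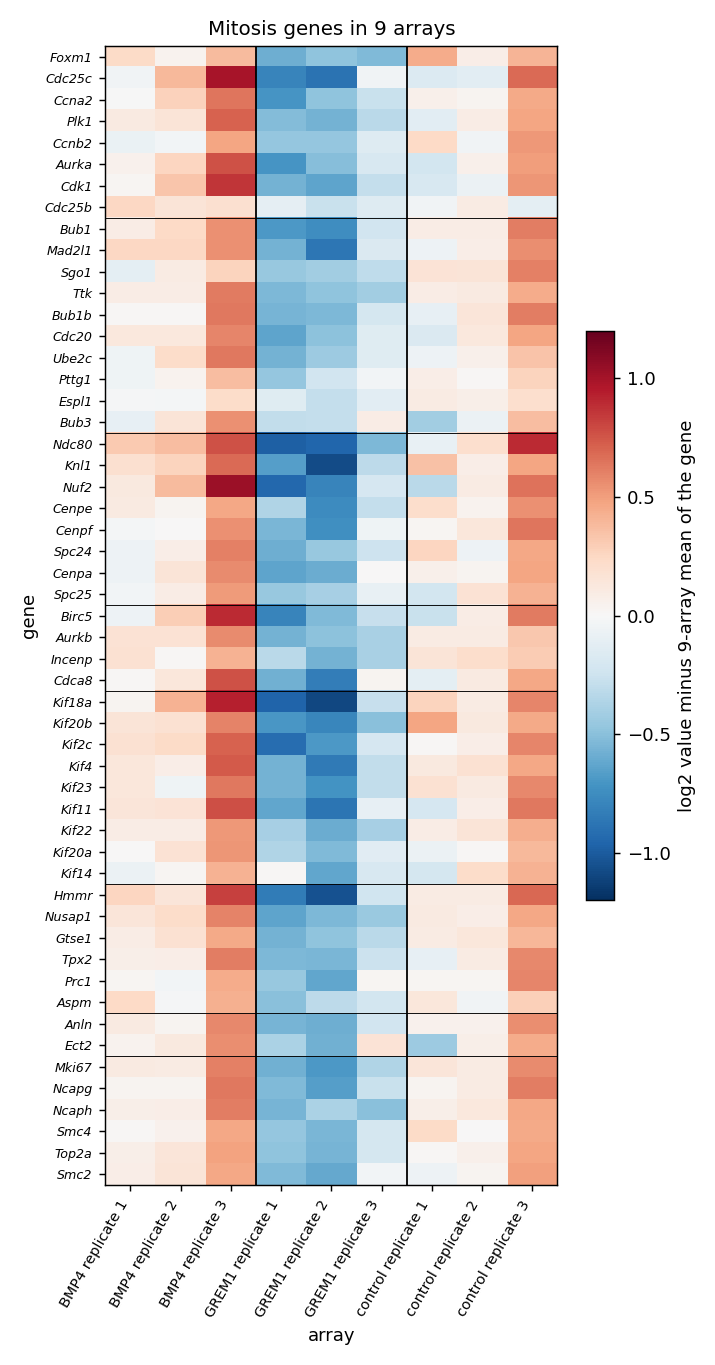
Log2 value of each of 53 mitosis genes (rows, by function) in each of 9 arrays (columns, BMP4, GREM1 and control), minus the gene's mean over the 9 arrays, as colour (red above, blue below). The GREM1 columns are mostly blue in every functional group, and replicate 3 of BMP4 and of control is the reddest column of its group.

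BMP4 arrays also stood above GREM1 arrays, a comparison that shares its GREM1 arrays with the one above. In BMP4 minus GREM1, 24 of 53 members were higher and 0 lower, where 3.62% of all tested genes were higher and 2.83% lower. All 53 differences were above 0, with a median of 0.71 against -2.3e-05 over all tested genes, and in 46 members every BMP4 array lay above every GREM1 array, as in 12.3% of all tested genes in that direction. The entry group had 4 of 8 members higher, the checkpoint group 3 of 10, the kinetochore group 2 of 8, the passenger complex 2 of 4, the kinesins 6 of 9, the spindle proteins 4 of 6, cytokinesis 0 of 2 and the condensin group 3 of 6.

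The largest BMP4 minus GREM1 differences that passed were Ndc80 at 1.31 ± 0.24 (adjusted p = 0.0119), Kif18a at 1.24 ± 0.26 (adjusted p = 0.0233), Hmmr at 1.11 ± 0.25 (adjusted p = 0.0306) and Knl1 at 1.06 ± 0.20 (adjusted p = 0.0137). Foxm1 (0.75, adjusted p = 0.00631), Aurkb (0.79, adjusted p = 0.0054), Kif20b (0.97, adjusted p = 0.00427) and Nusap1 (0.86, adjusted p = 0.00714) were the 4 members that passed under all 18 alternatives run. In the entry group Ccna2 (0.79), Plk1 (0.79) and Cdc25b (0.37) were also higher, with adjusted p of 0.0339, 0.0378 and 0.0315. Mad2l1 (0.89), Bub1 (0.85) and Ttk (0.75) were the checkpoint genes that passed. Incenp (0.63), Kif2c (0.97), Kif4 (0.89), Kif22 (0.69), Kif23 (0.77), Gtse1 (0.70), Aspm (0.56), Ncaph (0.73), Top2a (0.65) and Mki67 (0.81) complete the 24. Cdk1, at 0.90 ± 0.24, was just outside (adjusted p = 0.0559), and the smallest difference was that of Espl1, at 0.25 ± 0.094.

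BMP4 minus control gave 0 members higher and 0 lower in limma, where 0.0933% of all tested genes were higher and 0.0233% lower. An unadjusted p under 0.05 was found for 1 member of 53. Of all 17142 tested genes, 691 had such a p with a difference above 0 and 684 with one below 0. With the replicate block the count was 0 as well. Of the 53 differences 39 were above 0 and 14 below, with a median of 0.064, and they ran from -0.22 for Sgo1 to 0.36 for Nuf2. Mki67 averaged 8.78 with BMP4 and 8.78 in controls, a difference of 0.00 ± 0.17. Cdk1 differed by 0.31 ± 0.24 (adjusted p = 0.756) and Foxm1 by -0.09 ± 0.12 (adjusted p = 0.863). The median SE was 0.19, and a p above the threshold does not show that the groups were alike.

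The counts of called members rested on single arrays more than the directions did. In GREM1 minus control the 17 falls became 5, 11 and 2 without control replicates 1, 2 and 3. They became 13, 10 and 25 without BMP4 replicates 1, 2 and 3. Without GREM1 replicates 1, 2 and 3 they became 3, 2 and 14. The median difference stayed between -0.76 and -0.52. In BMP4 minus GREM1 the 24 became 19, 15 and 10 without BMP4 replicates 1, 2 and 3. Without GREM1 replicates 1, 2 and 3 they became 5, 6 and 22. They were 24, 21 and 33 without control replicates 1, 2 and 3, and the median lay between 0.55 and 0.81. Bub3 was the 1 member that changed sign in GREM1 minus control when control replicate 3 was left out, and no member did in BMP4 minus GREM1 under any alternative.

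A further list of mitosis genes outside the 54 was read for comparison. Of 75 tested, 19 fell and 0 rose in GREM1 minus control, with a median difference of -0.58, and 53 fell with the replicate block. Over all tested genes 2.21% fell, and 1029 of 17142 fell with the block. In BMP4 minus GREM1 26 were higher, where 3.62% of all tested genes were higher. In BMP4 minus control 0 passed in limma, with 1 at an unadjusted p under 0.05. Of all 17142 tested genes, 691 above 0 and 684 below 0 had such a p in BMP4 minus control. The smallest p values belonged to Cdca2, a chromatin protein of the exit from mitosis (-0.76 ± 0.084, adjusted p = 0.00267), Ckap2l, a spindle protein (-0.89 ± 0.12, adjusted p = 0.00448), Fbxo5, the EMI1 inhibitor of the anaphase-promoting complex (-1.01 ± 0.14, adjusted p = 0.00612), and Cenpu of the inner kinetochore (-0.80 ± 0.11, adjusted p = 0.0066). The CHR core lay in 49.3% of 67 promoters of these genes.

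Genes of DNA replication and the G1/S transition had a median difference closer to 0, a contrast that was not tested, and all 38 lay below 0. Of 38 tested, 8 fell and 0 rose in GREM1 minus control, with a median of -0.42, and 22 fell with the block. Over all tested genes 2.21% fell, and 1029 of 17142 fell with the block. Those with the smallest p were Tyms, thymidylate synthase (-0.99, adjusted p = 0.00784), Chaf1a, a histone chaperone of replication forks (-0.68, adjusted p = 0.0145), Dscc1, which helps load the sliding clamp (-0.72, adjusted p = 0.016), and Pole, the leading-strand polymerase (-0.81, adjusted p = 0.0164). Their 36 matched promoters held the CHR core in 11.1%, CCAAT in 61.1% and an E2F-like site in 36.1%, against 71.4%, 75.5% and 6.12% for the mitosis genes.

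Regulators of these programmes had differences of both signs, and few passed the test. Of 19 tested transcription regulators of the cell cycle, E2f2 rose by 0.78 ± 0.13 in GREM1 minus control (adjusted p = 0.0116) and Myc fell by 0.62 ± 0.10 (adjusted p = 0.0117). E2f7, an atypical repressor (-0.53, adjusted p = 0.057), and Lin9, a MuvB subunit (-0.51, adjusted p = 0.0624), were next and did not pass. With the replicate block 2 of the 19 rose and 4 fell. The shares over all tested genes were 2.07% that rose and 2.21% that fell. With the block 956 of 17142 rose and 1029 fell. Counts as small as those of these regulators are given as a description. Of 14 D-type cyclins, CDKs and CDK inhibitors, 1 rose and 0 fell, against 2 and 1 with the block. Cdkn1c, the p57 inhibitor, measured 5.37, 5.35 and 4.96 in BMP4 arrays, 7.39, 7.02 and 8.07 in GREM1 arrays and 5.61, 5.29 and 5.59 in control arrays. It rose by 2.00 ± 0.24 with GREM1 (adjusted p = 0.00321), and its GREM1 arrays were all far above the others. Cdkn3 (-0.91, adjusted p = 0.0854), Ccnd3 (0.53, adjusted p = 0.0949) and the p21 gene Cdkn1a (0.62, adjusted p = 0.188) did not pass.

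**Figure D5:**
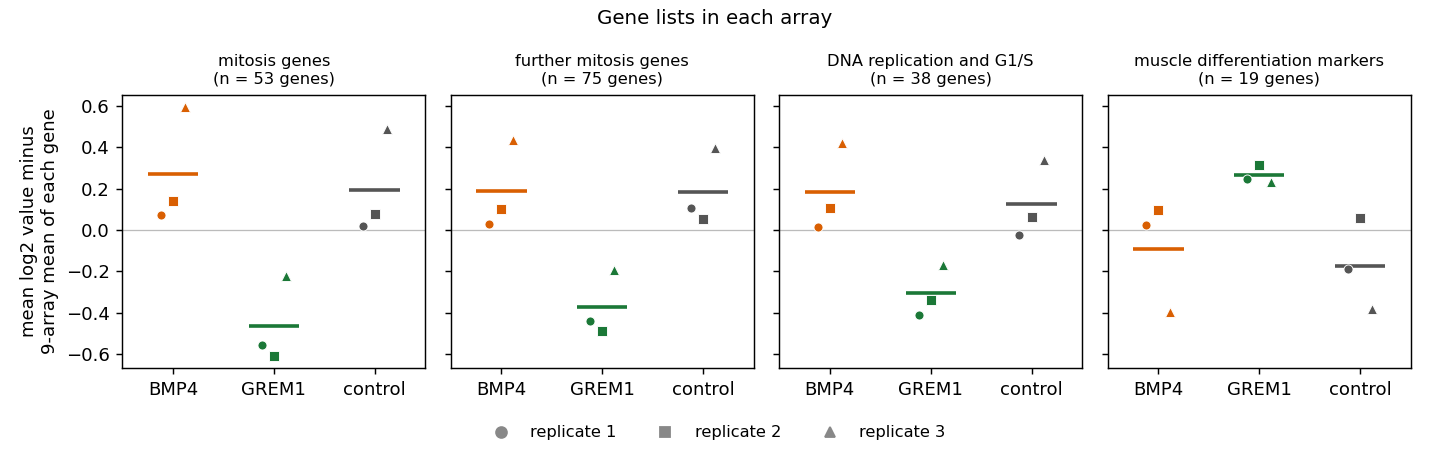
Mean log2 value of 4 gene lists in each array, after subtracting each gene's mean over the 9 arrays (vertical axis), for BMP4, GREM1 and control; symbols are replicates 1, 2 and 3 and lines are group means. The GREM1 arrays are the lowest group in the 53 mitosis, 75 further mitosis and 38 DNA replication genes, and the highest in the 19 muscle differentiation markers.

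Markers of differentiating muscle had differences of the opposite sign beside the mitosis genes. Their mean log2 level over 19 genes ran from 10.43 to 10.92 in BMP4 arrays, from 11.06 to 11.14 in GREM1 arrays and from 10.44 to 10.88 in control arrays. All 19 were above 0 in GREM1 minus control, with a median of 0.33, and 3 rose, which were Ckm, muscle creatine kinase (1.70, adjusted p = 0.00433), Chrng, the fetal acetylcholine receptor subunit (0.67, adjusted p = 0.0126), and Mymx, a fusion protein (1.02, adjusted p = 0.0419). With the replicate block 7 of the 19 rose. The share of all tested genes that rose was 2.07%, and with the block 956 of 17142 rose and 1029 fell. Of 10 myoblast and satellite cell markers 3 rose, Itga7 (1.0), Cd82 (0.82) and Cdh15 (0.91), and 4 had differences below 0, Myf5 (-0.85, adjusted p = 0.144), Met (-0.35, adjusted p = 0.234), Pax7 (-0.20) and Vcam1 (-0.15). With the block Myf5 and Met fell as well (adjusted p = 0.000974 and 0.0199). Of the 5 other cell types, 0 markers passed in GREM1 minus control in limma (unadjusted p under 0.05 for 2 of 4 tested of fibroblasts, 2 of 6 of pericytes and 1 of 2 of Schwann cells). Of all 17142 tested genes, 1576 had such a p with a difference above 0 and 1845 with one below 0. With the block 3 of these markers passed, Col3a1 of fibroblasts lower (-0.52, adjusted p = 0.00775), and Abcc9 of pericytes (0.88, adjusted p = 0.000916) and Erbb3 of Schwann cells (1.18, adjusted p = 0.00406) higher. Among all tested genes 11.6% passed with the block in either direction. The mean levels of these 5 marker lists per array lay between 3.87 and 5.73, with medians of the difference from -0.0089 to 0.60. The part of any of these markers in the differences of the mitosis genes was not tested.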

How the data were processed

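Expression of 9 samples in 3 groups of 3 was measured on 1 Affymetrix array each. The deposited values are log2 expression levels which the authors made, per the submitters' processing notes, with the Affymetrix Expression Console and RMA, a method of background correction, normalization across arrays and summary by probe set. Not given in the sources used here were the array model, chip definition and build. Values ran from 1.80 to 12.7 and were not transformed further; precision is limited by the number of arrays.

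Of 24973 probe sets, 24015 carried 1 symbol and 958 none, and 23922 symbols were found in RefSeq, 93 were not and 0 were updated. For a gene with several probe sets, the brightest one on average was kept. Testing required that at least 3 arrays exceeded the 30th percentile of their own array (3.89 to 4.02). Differences were fitted to all 9 arrays with limma 3.58.1 in R 4.3.3 (lmFit and eBayes, 1 coefficient per group, two-sided, 6 residual degrees of freedom), and p-values were adjusted by Benjamini-Hochberg over all 17142 genes of a comparison, with a threshold of 0.05. "Rose", "fell", "higher" and "lower" of a tested gene refer to that threshold. The fit was run on simulated data with independent noise for each gene and array. These lacked the deviations that arrays of the same number share, so the run does not show how the fit behaves under them.

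The 54 members, the functional groups, the other gene lists, the motifs and the tests were chosen with earlier results of these data known. Values in every array are given for members that passed in any comparison, for those with the largest and smallest GREM1 minus control difference of each group, and for Cdk1, Ccna2, Foxm1, Plk1, Top2a and Mki67. Of other lists, up to 4 genes with the smallest p in GREM1 minus control are named, and cell type markers are named where they passed, also with the block; Pax7 and Vcam1 were named after their values were seen. The replicate numbers of the labels were taken to pair arrays where every same-numbered correlation of deviations was over 0.1, which held for both comparisons with control. Some arrays of unlike numbers also exceeded 0.1, up to 0.23. Promoters came from RefSeq (GRCm38.p6). Alternatives were the replicate block, leaving the group not compared out of the fit, a variance trend, array weights, quantile normalization once more, median centring, no filter, a stricter filter (50th percentile), averaging the probe sets of a gene, and leaving out each array. Averaging could hardly differ from the main fit, as the 24015 probe sets with 1 symbol covered 24011 genes, and it changed 0 calls of members.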

Additional observations from a re-analysis of the deposited data

How the results depend on the processing

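In GREM1 minus control, 17 members fell in the analysis as reported. The count was 49 with the replicate block, 30 with array weights, 11 with no filter, 10 when only the groups compared were fitted and 9 with arrays centred on their medians, and it ran from 2 to 25 when 1 array was left out. In BMP4 minus GREM1, 24 were higher, with 42 under array weights and 5 to 33 when 1 array was left out. For that comparison the number 2 arrays correlated at 0.088, under 0.1, so its arrays share only a number, and the block gave 51. In BMP4 minus control 0 members passed under every alternative. Leaving out 1 array gave medians from -0.76 to -0.52 in GREM1 minus control, from 0.55 to 0.81 in BMP4 minus GREM1 and from -0.092 to 0.19 in BMP4 minus control. Over all tested genes, 734 passed in GREM1 minus control (1985 with the block, 437 with only the groups compared and 245 to 898 without 1 array), 1105 in BMP4 minus GREM1 (2192 with the block, 1768 with array weights and 560 to 1155 without 1 array) and 20 in BMP4 minus control (65 with the block, 68 with array weights, 5 with only the groups compared and 2 to 17 without 1 array). With 3 arrays per group, single arrays decide many calls, and the cause of each change was not tested.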

Other observations

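Of the 53 members, 10 (18.9%) had the same deposited value in more than 1 of the 9 arrays, as did 7402 of 17142 tested genes (43.2%). Bub1, at 7.70 in BMP4 replicate 1 and in control replicates 1 and 2, and Aurkb, at 7.71 in control replicates 1 and 2, are among them. What makes values repeat was not tested.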
